A study of Homo sapiens with 9 samples.

Results

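The matrix metalloproteinases (MMP), the disintegrin and metalloproteinases (ADAM) and the tissue inhibitors of metalloproteinases (TIMP) were examined in RNA from 3 sublines of SUIT-2, a human pancreatic ductal adenocarcinoma (PDAC) cell line. Genes were taken by symbol, as MMP or ADAM followed by a number (with A or B for MMP23) or TIMP1 to TIMP4. This gave 50 genes of the 42717 in the count table, namely 24 MMP, 22 ADAM and 4 TIMP genes. The rule used names only and no measured value, although it was chosen with earlier results of these data known. The ADAMTS proteases, which carry another prefix, were kept apart as a list of related genes.

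The sublines S2-007, S2-020 and S2-028 were each sequenced as 3 libraries, n1 to n3, 9 in all. All were grown untreated in DMEM with 10% inactivated fetal bovine serum, and no allele or agent set the lines apart in the labels. In the study's protein work maspin, a serpin encoded by SERPINB5, lay in the nucleus and cytoplasm of S2-007 cells (panMaspin), mostly in the cytoplasm of S2-028 cells (cytMaspin), and was faint in S2-020 cells. Each line stands for itself, so a difference between lines cannot be told apart from a difference in maspin, in descent or in culture, and the labels do not say whether n1 to n3 were separate cultures, so that p-values measure only the spread between these libraries.

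MMPs are zinc-dependent endopeptidases that cut collagens and other matrix proteins. Most are secreted as inactive proenzymes, while the membrane-type MMPs (MT-MMPs) stay at the cell surface, where MMP14 activates pro-MMP2. Several ADAMs are membrane-bound sheddases that release the outer part of cell-surface proteins, such as growth factors of the epidermal growth factor family. TIMPs bind the active site of these enzymes, and TIMP3, which stays in the matrix, also inhibits several ADAMs. In pancreatic tumors much of the MMP and TIMP mRNA comes from fibroblasts and leukocytes, which a pure line lacks.

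The total count was between 60328748 and 86253923 per library. Among values of 1 to 20, between 74.63% and 76.13% were even in each library, as would be seen if both mates of a read pair were counted separately, and a low count may then stand for fewer molecules than it shows. How the pairs were counted is not given in the sources used here. Libraries of one line differed by a chi-square per gene of 8.41 to 23.7 and those of different lines by 231 to 351. SERPINB5 had a mean of 212 ± 9.10 CPM (counts scaled to library size by TMM normalization; SD, n = 3) in S2-007, 6.55 ± 0.428 in S2-020 and 27.7 ± 2.75 in S2-028. The summed level of 6 epithelial markers was 9539 to 10073 CPM in S2-007, 4308 to 5426 CPM in S2-020 and 15156 to 17763 CPM in S2-028. For 6 fibroblast markers it was between 2.43 and 5.75 CPM in every library and for 3 endothelial markers between 5.39 and 9.84 CPM. For 5 leukocyte markers it was 338 to 411 CPM in S2-007 and 10.5 to 13.7 CPM in the other lines. Of that sum LYZ, the gene of lysozyme, made up 332 CPM on average in S2-007.

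Upstream sequences are shown for 5 genes that are described below and had a promoter sequence available. These sequences differ in the elements next to the start of transcription. They are the 150 bases before the RefSeq start on GRCh38.p14, from 5′ to 3′ on the gene's strand. For MMP7 and MMP10, neighbours in the MMP cluster of chromosome 11, capitals mark matches to the AP-1 consensus TGAGTCA, which FOS and JUN factors bind, and to the core promoter element TATAAA.
MMP7, chr11:102530748-102530897, reverse strand: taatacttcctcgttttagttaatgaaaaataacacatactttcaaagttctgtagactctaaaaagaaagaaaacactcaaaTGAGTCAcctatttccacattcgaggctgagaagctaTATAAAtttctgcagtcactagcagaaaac
MMP10, chr11:102780629-102780778, reverse strand: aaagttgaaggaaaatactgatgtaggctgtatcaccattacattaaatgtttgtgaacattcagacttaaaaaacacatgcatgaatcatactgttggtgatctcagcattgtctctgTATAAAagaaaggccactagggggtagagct
For TIMP3, ADAM19 and MMP14, capitals mark CG dinucleotides, the site of DNA methylation, which was not measured here.
TIMP3, chr22:32801555-32801704, forward strand: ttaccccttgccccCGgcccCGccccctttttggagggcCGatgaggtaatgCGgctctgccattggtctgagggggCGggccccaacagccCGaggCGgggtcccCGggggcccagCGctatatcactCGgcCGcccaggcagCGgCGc
ADAM19, chr5:157575776-157575925, reverse strand: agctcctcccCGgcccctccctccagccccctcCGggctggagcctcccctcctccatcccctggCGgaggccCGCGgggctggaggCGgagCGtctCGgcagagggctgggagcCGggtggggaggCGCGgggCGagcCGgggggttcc
MMP14, chr14:22836435-22836584, forward strand: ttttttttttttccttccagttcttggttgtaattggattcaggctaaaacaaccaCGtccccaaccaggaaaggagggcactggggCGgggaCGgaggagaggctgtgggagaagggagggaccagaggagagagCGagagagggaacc

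The stretches held 2 CG dinucleotides for MMP7, 0 for MMP10, 13 for TIMP3, 13 for ADAM19 and 4 for MMP14. Promoters of 250 bases before to 50 bases after the start were matched for 27 of the 50 genes in the RefSeq table. MMP1 and MMP28 were not among the 27, so their promoters were not searched. Searched on both strands, TGAGTCA was found in 1 of the 27, MMP7, where it began 67 bases before the start, and in 4.95% of all 35116 promoters. TATAAA was found in 7 of the 27 (MMP7, MMP8, MMP10, MMP20, MMP21, MMP26 and ADAM21) and in 11.5% of all promoters, and it began 30 bases before the start in MMP7 and 31 bases in MMP10. AGGAAG, a PEA3 site of ETS factors, was found in 7 of the 27 and in 33.6% of all. The median number of CG dinucleotides per promoter was 18 in the 27 and 14 in all promoters. A match describes these letters only.

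The genes of these families took between 0.710% and 0.753% of all counts in the S2-007 libraries, 0.142% to 0.149% in S2-020 and 0.175% to 0.182% in S2-028. In S2-007, MMP1 alone supplied 68.6% to 71.6% of the reads of the 50 genes. In S2-020 and S2-028 the largest shares were those of ADAM9 (21.4% to 22.7% and 22.9% to 24.6%) and TIMP2 (19.3% to 20.3% and 25.2% to 26.9%). All 50 genes exceeded 3 counts in at least 1 library, 17 stayed under 30 counts in every library, and 8 had at least 1000 counts in every library (MMP7, MMP15, ADAM9, ADAM10, ADAM15, ADAM17, TIMP1 and TIMP2).

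Genes were tested over the whole table in each pair of lines, and a gene was called at an adjusted p under 0.05 and a fold change of at least 1.5. Of the 50 genes 33 passed the filter on low counts in all 3 comparisons, 38 in at least 1, and 12 in none (ADAM2, ADAM5, ADAM6, ADAM7, ADAM18, ADAM30, MMP2, MMP3, MMP20, MMP21, MMP26 and MMP27). A gene could pass through the line in which it was high, so shares among those that passed are given beside shares of all 50. The background below is over genes tested, so it has the same basis as the first of these shares only.

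In S2-028 against S2-007, 7 genes were higher and 11 lower of 38 that passed the filter, which was 47.4% of these and 36.0% of the 50. Over all genes tested 18.4% were called, 10.2% higher and 8.19% lower. The median log2 fold change was -0.15 for the 38 genes and 0.00 for all genes tested. By the adjusted p alone 22 of the 38 passed, against 33.9% of all genes tested. The MMP genes supplied 8 of the lower calls and 1 of the higher, the ADAM genes 5 higher and 1 lower, and the TIMP genes 1 higher and 2 lower. Without S2-028 n1 the higher calls were 5, and without S2-028 n3 they were 8.

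In S2-020 against S2-007, 6 genes were higher and 11 lower of 35, which was 48.6% of these and 34.0% of the 50. The background was 21.6% of all genes tested, 9.57% higher and 12.1% lower. By the adjusted p alone 22 of the 35 passed, against 40.2% of all. The median log2 fold change was -0.21 for the 35 genes and -0.05 for all genes tested. Of 16 MMP genes tested 8 were lower and 3 higher (68.8% called), and of 15 ADAM genes 3 and 2 (33.3%). TIMP3 was the single call of the 4 TIMP genes. The lower MMP calls include MMP10 and MMP12, which rest on few counts.

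In S2-028 against S2-020, 12 genes were higher and 7 lower of 34, which was 55.9% of these and 38.0% of the 50. The background was 22.2% of all genes tested, 12.1% higher and 10.1% lower. By the adjusted p alone 22 of the 34 passed, against 40.4% of all. The median log2 fold change was 0.17 for the 34 genes and 0.02 for all genes tested. The 14 MMP genes tested gave 5 higher and 5 lower calls (71.4% called). All 5 calls among 16 ADAM genes tested were higher (31.2% called). TIMP2 and TIMP3 were higher while TIMP1 and TIMP4 were lower. The 3 comparisons share libraries and are not independent of each other.

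In all, 24 genes were called in at least 1 comparison and 9 in all 3 (MMP1, MMP7, MMP14, MMP24, MMP28, ADAM8, ADAM11, ADAM19 and TIMP3). By mean level 11 of the 24 were highest in S2-007, 4 in S2-020 and 9 in S2-028. Another 12 genes passed the filter in all 3 comparisons and were called in none, among them ADAM9, ADAM10, ADAM12 and ADAM15.

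**Figure D1:**
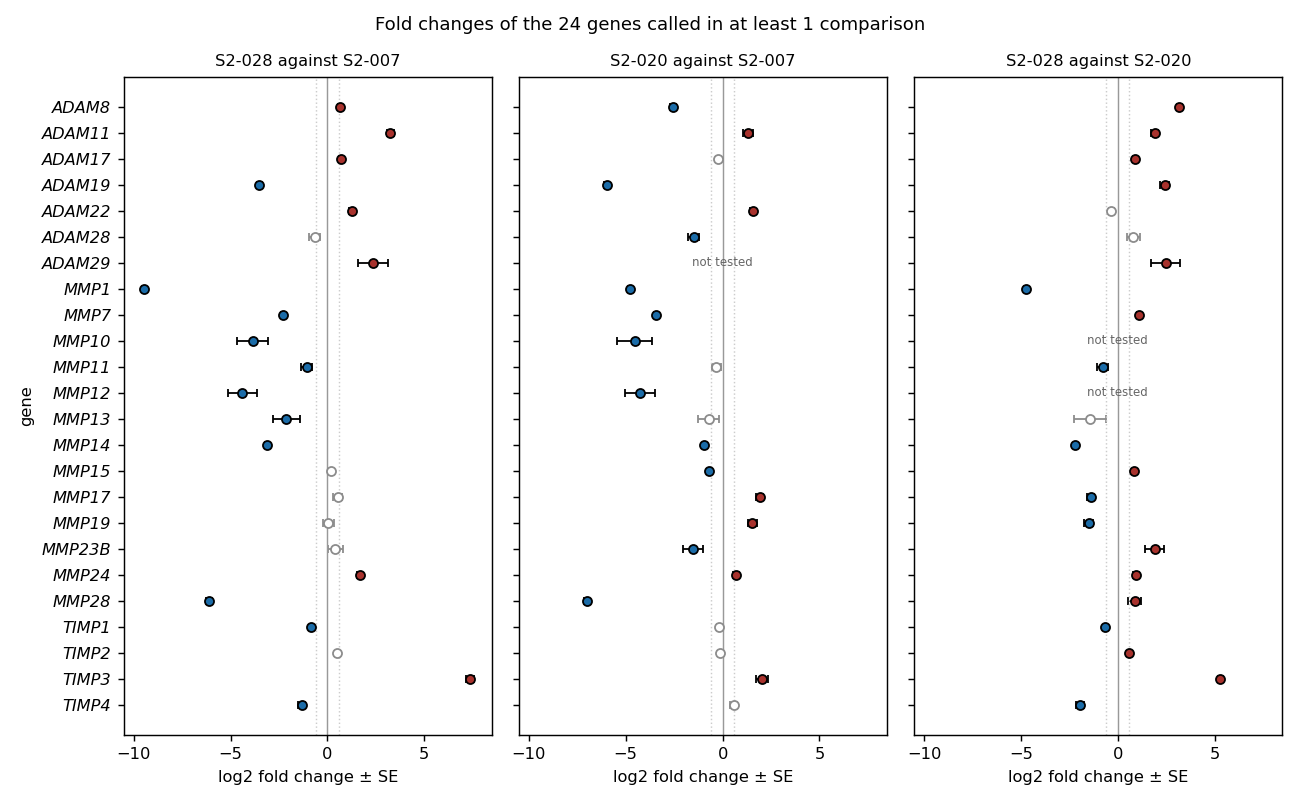
Log2 fold changes (x axis) with standard errors (bars) of the 24 genes called in at least 1 comparison (y axis), with 1 panel per pair of lines. Filled points were called, red higher and blue lower in the first line, open points were not, and dotted lines mark a 1.5-fold change. MMP1 lies at -9.49 and TIMP3 at 7.35 in the panel of S2-028 against S2-007.

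MMP1 (NCBI gene 4312), the interstitial collagenase that cuts fibrillar collagens, lies on chromosome 11 from 102789919 to 102798160, on the reverse strand. Its level was 4626, 4994 and 5499 CPM in the S2-007 libraries n1, n2 and n3. It was 204, 187 and 165 CPM in S2-020. It was 6.59, 8.08 and 6.28 CPM in S2-028, where these values stood for 409, 516 and 383 counts. The 3 lines were separate steps with no overlap between libraries, S2-007 highest and S2-028 lowest. By raw counts MMP1 was the gene of rank 2 or 3 in the S2-007 libraries, of rank 1014 to 1277 in S2-020 and of rank 10750 to 11246 in S2-028. The log2 fold change was -9.49 (SE 0.0974) in S2-028 against S2-007, with an edgeR adjusted p of 1.71e-23. It was -4.79 (SE 0.0724, edgeR adjusted p = 3.00e-20) in S2-020 against S2-007 and -4.73 (SE 0.0967, edgeR adjusted p = 6.23e-18) in S2-028 against S2-020. Leaving out any single library kept the first of these between -9.61 and -9.42. In bulk RNA a lower level may come from fewer cells that carry the transcript or from less of it in each cell, and these cannot be told apart.

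**Figure D2:**
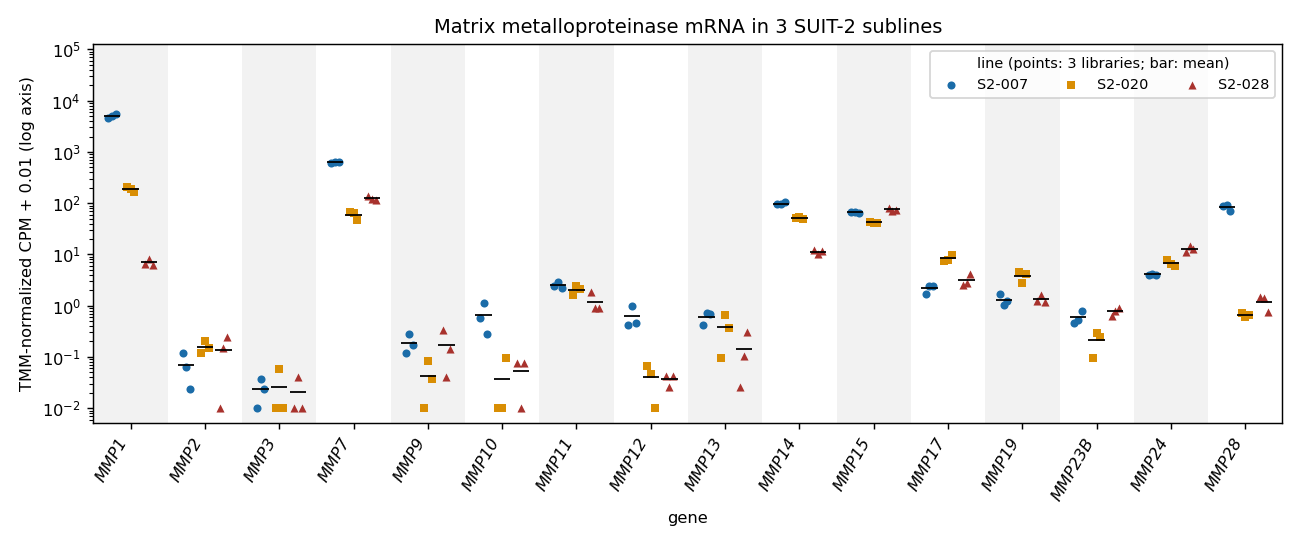
Level of each named MMP gene (x axis) in every library, as TMM-normalized CPM plus 0.01 on a log axis (y axis), with points for the 3 libraries of a line and a bar for their mean. MMP1 descends from 4626 to 5499 CPM in S2-007 to 6.28 to 8.08 CPM in S2-028, and MMP2, MMP3 and MMP9 stay at or under 0.322 CPM in every library.

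MMP7 (gene 4316), the matrilysin, which lacks the hemopexin domain of most MMPs and is made by epithelial cells, had 622, 636 and 631 CPM in S2-007. The S2-020 libraries had 67.9, 63.0 and 46.9 CPM. The S2-028 libraries had 139, 123 and 117 CPM. Unlike MMP1, which was lowest in S2-028, MMP7 was lowest in S2-020, and no library of one line overlapped another line. The log2 fold change was -2.31 (SE 0.0670, edgeR adjusted p = 1.18e-16) in S2-028 and -3.44 (SE 0.0953, edgeR adjusted p = 2.09e-16) in S2-020, each against S2-007. In S2-028 against S2-020 it was 1.09 (SE 0.0986, edgeR adjusted p = 2.10e-08).

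Per kilobase of the MANE Select transcript, which allows genes to be compared, MMP1 had the highest level of the families in S2-007, with a mean of 2557 ± 222 CPM per kb (SD, n = 3), and MMP7 the next, with 563 ± 6.34. In S2-020 TIMP1 came first with 146 ± 9.61 CPM per kb and MMP1 followed with 94.0 ± 9.78. In S2-028 TIMP2 came first with 125 ± 2.44 CPM per kb, followed by MMP7 with 113 ± 9.90 and ADAM9 with 102 ± 4.41, and MMP1 was at rank 11 with 3.54 ± 0.488. In S2-028 the MMP7 and ADAM9 libraries overlapped on this scale, as did those of MMP7 and TIMP2.

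MMP1 and MMP7 belong to a cluster of 9 MMP genes on the long arm of chromosome 11, between 102520508 and 102955732 (435.2 kb). In order of position these are MMP7, MMP20, MMP27, MMP8, MMP10, MMP1, MMP3, MMP12 and MMP13, all on the reverse strand. The other members of the cluster were scarce. MMP10, the stromelysin-2, had 42, 82 and 20 counts in S2-007, 0, 0 and 6 in S2-020 and 4, 0 and 4 in S2-028. MMP12, the macrophage elastase, had 31, 71 and 33 counts in S2-007, 4, 3 and 0 in S2-020 and 2, 1 and 2 in S2-028. Both were counted almost only in S2-007 and were lower in the other 2 lines. They passed the filter through S2-007 and were not tested in S2-028 against S2-020. A gene that passes in this way could hardly be called other than lower, so the calls add little to the counts. The log2 fold change of MMP10 was -3.85 (SE 0.796, edgeR adjusted p = 0.000539) in S2-028 and -4.54 (SE 0.909, edgeR adjusted p = 0.000377) in S2-020. That of MMP12 was -4.40 (SE 0.745, edgeR adjusted p = 6.15e-05) and -4.26 (SE 0.772, edgeR adjusted p = 0.000132). These sizes rest on a few counts in the lower line. Without S2-020 n3 the S2-020 libraries held no MMP10 count and its fitted value moved to -8.63. Without S2-007 n2 the value of MMP10 in S2-028 was -3.21, and without S2-020 n1 that of MMP12 in S2-020 was -4.90. MMP12 was named after its values were seen, as were MMP23B and ADAM29 below.

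MMP13, a collagenase with a preference for type II collagen, had 30, 52 and 50 counts in S2-007, 6, 54 and 26 in S2-020 and 1, 6 and 18 in S2-028. Its call in S2-028 against S2-007 (log2 fold change -2.12, SE 0.681, edgeR adjusted p = 0.0189) was lost without S2-007 n2 (0.0801), S2-007 n3 (0.0682), S2-028 n1 (0.0661) or S2-028 n2 (0.0563), values that are edgeR adjusted p. Without S2-028 n3 it was -3.38. MMP13 was not called in the other comparisons, where libraries overlapped, although S2-028 was called lower than S2-020 without S2-028 n3 (-2.69, edgeR adjusted p = 0.0458). MMP3, the stromelysin-1, had at most 4 counts in any library. MMP8, MMP20 and MMP27 also stayed under 30 counts. MMP20 and MMP27 did not pass the filter in any comparison, so they were not tested. MMP8 was not called by the quasi-likelihood test on all libraries of a pair. MMP8 in S2-028 against S2-020 (log2 fold change 1.69, edgeR adjusted p = 0.0806) was called by the likelihood ratio test and, by the quasi-likelihood test, without S2-020 n3. Its lowest edgeR adjusted p over all settings was 0.0347.

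As a set, genes around the cluster did not share the fall of MMP1, although some were lower. The 50 nearest other genes that were tested, within 5.34 Mb of MMP1, had a median log2 fold change of -0.05 in S2-028 against S2-007, with 6 called higher and 5 lower. In that pair 18.4% of all genes tested were called. CEP126, at -1.05, was among the lower ones. In S2-020 against S2-007 the median of the 50 nearest was 0.09 and in S2-028 against S2-020 it was -0.15. BIRC3, BIRC2, TMEM123 and DCUN1D5, which flank the cluster, had log2 fold changes of 0.78, -0.39, 0.61 and -0.02 in S2-028 against S2-007. WTAPP1, a pseudogene on the opposite strand that covers 7.61% of the exon bases of MMP1, had 189, 228 and 185 counts in S2-007, 83, 153 and 71 in S2-020 and 23, 6 and 7 in S2-028. Its log2 fold change was -3.79 in S2-028 against S2-007. Whether WTAPP1 reads came from its own transcript or from MMP1 cannot be told, because the sources used here do not say how strand was treated in counting.

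**Figure D3:**
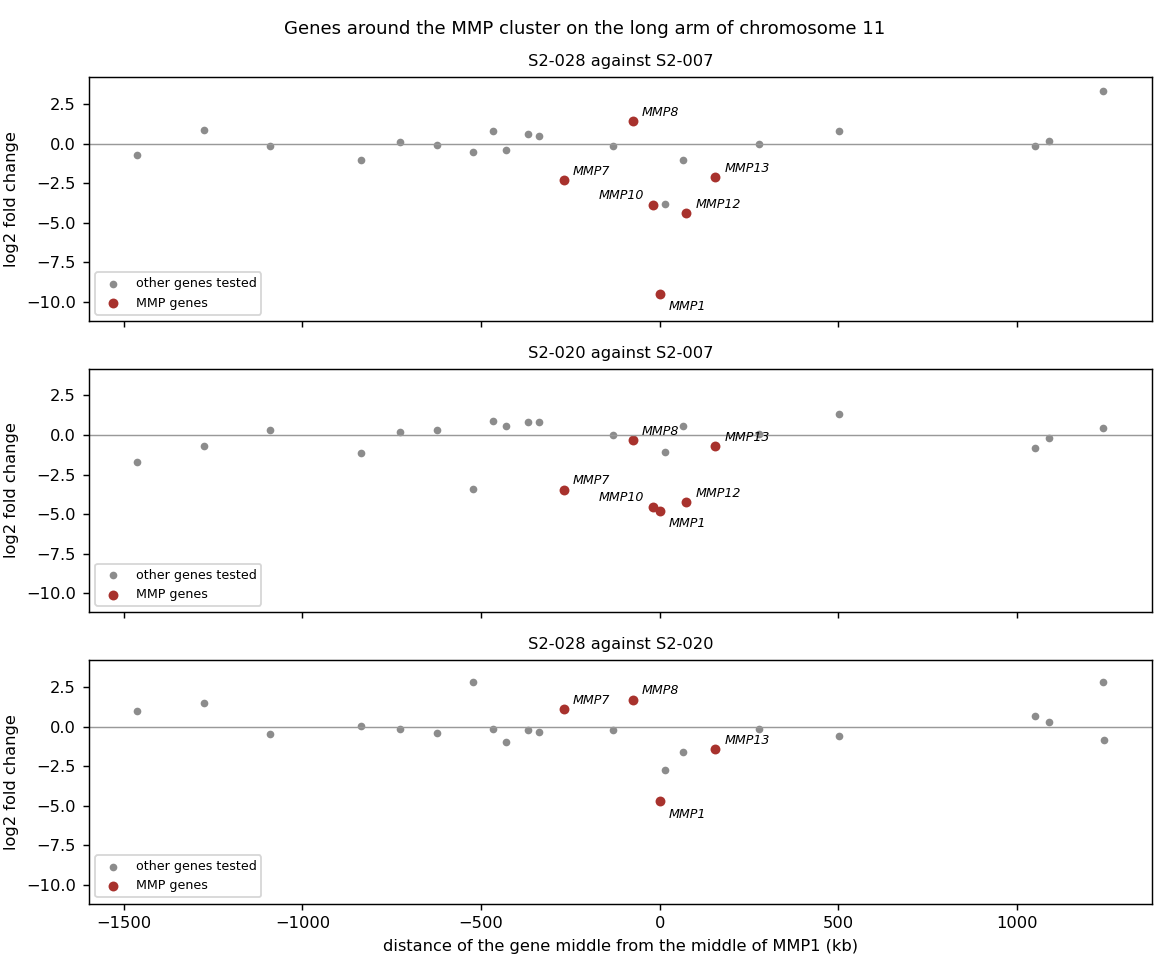
Log2 fold change (y axis) of the genes tested around MMP1 by distance of the gene's middle from that of MMP1 in kb (x axis), in 1 panel per pair of lines, with MMP genes in red and other genes in grey. In S2-028 against S2-007 MMP1 lies at -9.49, MMP7 at -2.31, MMP10 at -3.85, MMP12 at -4.40 and MMP13 at -2.12, while MMP8, at 1.40, was not called.

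MMP2 and MMP9, the gelatinases that cut denatured and basement membrane collagen, were near the limit of counting. MMP2 had 0 to 16 counts and MMP9 0 to 20 counts per library. MMP2 passed the filter in no comparison, and MMP9 passed it in 1, S2-028 against S2-007, where its log2 fold change was -0.14 (SE 0.813, edgeR adjusted p = 0.929) and libraries overlapped. A difference in these enzymes between the lines was not detectable at this depth.

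Among the MT-MMPs, MMP14 (MT1-MMP, gene 4323; chromosome 14 from 22836585 to 22847758, forward strand) followed the order of MMP1 at smaller steps. It had 95.5, 96.7 and 103 CPM in S2-007. The S2-020 libraries had 50.9, 53.8 and 49.9 CPM. The S2-028 libraries had 12, 10.1 and 11.7 CPM. No libraries of different lines overlapped. The log2 fold change was -3.12 (SE 0.0802, edgeR adjusted p = 1.71e-17) in S2-028 and -0.97 (SE 0.0562, edgeR adjusted p = 2.15e-11) in S2-020, each against S2-007. In S2-028 against S2-020 it was -2.19 (SE 0.0847, edgeR adjusted p = 7.18e-14).

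MMP15 (MT2-MMP) was lower in S2-020 than in both other lines. It had 66.7, 66.8 and 65.4 CPM in S2-007, 43.3, 41.3 and 41.7 CPM in S2-020 and 81.7, 71.6 and 73.0 CPM in S2-028. On the log2 scale the fold change was -0.69 (SE 0.0580, edgeR adjusted p = 6.11e-09) in S2-020 against S2-007 and 0.84 (SE 0.0656, edgeR adjusted p = 2.56e-09) in S2-028 against S2-020. Against S2-007 the S2-028 libraries differed by 0.19 on the log2 scale, under the 1.5-fold threshold. Thus in S2-028 MMP15 was above MMP14 in every library also per kilobase of transcript, with means of 18.6 ± 1.34 and 3.04 ± 0.284 CPM per kb, whereas in S2-007 MMP14 was above MMP15, with 26.6 ± 1.11 and 16.3 ± 0.187 CPM per kb.

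MMP24 (MT5-MMP) had 4.03, 4.11 and 4.03 CPM in S2-007, 7.70, 6.61 and 5.87 CPM in S2-020 and 11, 14.9 and 12.8 CPM in S2-028. It was called in every pair, in an order opposite to that of MMP14. Its log2 fold change was 1.67 (SE 0.138, edgeR adjusted p = 2.78e-09) in S2-028 and 0.70 (SE 0.147, edgeR adjusted p = 0.000633) in S2-020, each against S2-007, and 0.94 (SE 0.137) between S2-028 and S2-020. Of its exon bases 22.1% lie under genes on the opposite strand, MMP24OS among them.

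MMP17 (MT4-MMP, held by a lipid anchor) was highest in S2-020. It had 7.57, 7.86 and 9.55 CPM there, 1.68, 2.42 and 2.40 CPM in S2-007 and 2.55, 2.71 and 4.18 CPM in S2-028. Its log2 fold change in S2-020 against S2-007 was 1.91 (SE 0.170, edgeR adjusted p = 1.29e-08), and that in S2-028 against S2-020 was -1.40 (SE 0.183, edgeR adjusted p = 2.97e-06). MMP19, a secreted enzyme of basement membrane proteins, had the same order of means, with 4.58, 2.76 and 4.14 CPM in S2-020 and between 1.03 and 1.64 CPM in each library of the other lines. Its log2 fold change was 1.52 (SE 0.238, edgeR adjusted p = 2.41e-05) in S2-020 against S2-007. Of the exon bases of MMP19 25.4% lie under TMEM198B on the opposite strand.

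MMP28 (epilysin, gene 79148; chromosome 17 from 35756249 to 35795641, reverse strand), a secreted MMP of keratinocytes and other epithelia, was far higher in S2-007 than in the other lines. It had 87.1, 91.5 and 68.9 CPM in S2-007. The S2-020 libraries had 0.724, 0.601 and 0.641 CPM. The S2-028 libraries had 1.45, 1.38 and 0.754 CPM. Its log2 fold change was -6.10 (SE 0.159, edgeR adjusted p = 2.17e-17) in S2-028 and -7.01 (SE 0.136, edgeR adjusted p = 9.08e-19) in S2-020, each against S2-007. The small difference between S2-028 and S2-020, 0.87 (SE 0.333, edgeR adjusted p = 0.0451), was no longer called with no filter on low counts (0.0563) or without S2-020 n1 (0.0671), S2-020 n2 (0.123), S2-020 n3 (0.0971), S2-028 n1 (0.175) or S2-028 n2 (0.132), values that are edgeR adjusted p.

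MMP11 (stromelysin-3), which unlike most secreted MMPs leaves the cell in active form, had 2.39, 2.90 and 2.21 CPM in S2-007, 1.61, 2.46 and 2.06 CPM in S2-020 and 1.80, 0.877 and 0.885 CPM in S2-028. It was lower in S2-028 than in S2-007 (log2 fold change -1.07, SE 0.284, edgeR adjusted p = 0.00511). The call against S2-020 (-0.78, SE 0.296, edgeR adjusted p = 0.0414) had overlapping libraries and was lost without S2-020 n2 (0.175), S2-020 n3 (0.0864), S2-028 n2 (0.180) or S2-028 n3 (0.168), values that are edgeR adjusted p. MMP23B shares 81.0% of its 31-base words with MMP23A, so reads of the pair may be assigned to either, and its 6 to 58 counts per library are uncertain. It was called lower in S2-020 than in S2-007 (-1.53, SE 0.531, edgeR adjusted p = 0.0269), a call lost without S2-007 n3 (0.156) or S2-020 n1 (0.0920), and higher in S2-028 than in S2-020 (1.90, SE 0.506, edgeR adjusted p = 0.00472).

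The sheddases ADAM9, ADAM10 and ADAM15 were not called in any comparison, unlike ADAM17, which is described below. ADAM10, the α-secretase that also cuts Notch receptors and E-cadherin, had 219.7, 233 and 225 CPM in S2-007. It had 239, 233 and 222 CPM in S2-020 and 229.5, 237 and 213 CPM in S2-028. The libraries of the 3 lines overlapped, and its log2 fold changes ran from -0.03 to 0.00, each with an SE of 0.0512 to 0.0595. ADAM9 had 332 to 434 CPM and ADAM15 80.0 to 131 CPM over all libraries. Neither reached 1.5-fold in any pair, although ADAM15 in S2-028 against S2-007 was close to it (log2 fold change 0.56, SE 0.0640) and passed it without S2-007 n3 (0.60) or S2-028 n3 (0.59). By the adjusted p alone both were higher in S2-028 than in S2-007 and S2-020, without overlap of libraries. The edgeR adjusted p was 3.94e-07 and 7.20e-06 for ADAM15 and 0.00907 and 3.02e-05 for ADAM9.

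ADAM17 (TACE, gene 6868), which sheds TNF, amphiregulin and TGF-α, was higher in S2-028. It had 51.6, 49.7 and 49.8 CPM in S2-007, 45.3, 43.1 and 44.6 CPM in S2-020 and 82.1, 75.6 and 84.9 CPM in S2-028. All S2-028 libraries lay above those of both other lines. The fitted log2 change was 0.68 (SE 0.0667, edgeR adjusted p = 3.48e-08) against S2-007 and 0.87 (SE 0.0630, edgeR adjusted p = 9.49e-10) against S2-020. Of the exon bases of ADAM17 30.1% lie under IAH1 on the opposite strand.

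ADAM8, an ADAM of leukocytes that is also made by pancreatic tumor cells, was lowest in S2-020. It had 11.4, 10.9 and 12.9 CPM in S2-007, 2.28, 2.15 and 1.56 CPM in S2-020 and 19.3, 17.1 and 18 CPM in S2-028. The test gave a log2 fold change of -2.58 (SE 0.154, edgeR adjusted p = 3.11e-11) in S2-020 against S2-007 and 3.18 (SE 0.145, edgeR adjusted p = 8.44e-13) in S2-028 against S2-020. Against S2-007 the value for S2-028 was 0.63 (SE 0.104, edgeR adjusted p = 4.52e-05), and without S2-028 n1 it was 0.58, under the 1.5-fold threshold.

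ADAM19 (meltrin beta, gene 8728; chromosome 5 from 157477304 to 157575775, reverse strand), a sheddase of neuregulins, had 48.4, 60.8 and 54.5 CPM in S2-007. The S2-020 libraries had 0.682, 1.03 and 0.934 CPM. The S2-028 libraries had 4.22, 4.48 and 5.61 CPM. No libraries of different lines overlapped, and as with MMP7 the order was S2-007, S2-028 and S2-020. On the log2 scale the fold change was -3.51 (SE 0.112, edgeR adjusted p = 5.10e-16) in S2-028 and -5.97 (SE 0.128, edgeR adjusted p = 4.20e-18) in S2-020, each against S2-007. In S2-028 against S2-020 it was 2.43 (SE 0.223, edgeR adjusted p = 2.73e-08). ADAM28, a membrane-bound and secreted sheddase, was low throughout, with 1.87, 1.13 and 1.63 CPM in S2-007, 0.543, 0.553 and 0.571 CPM in S2-020 and 1.05, 1.13 and 0.754 CPM in S2-028. It was called in S2-020 against S2-007 (-1.50, SE 0.295, edgeR adjusted p = 0.000306). In S2-028 against S2-020 it was 0.81 (edgeR adjusted p = 0.0675) and was not called. It was called by the likelihood ratio test (edgeR adjusted p = 0.0494), with all 9 libraries in 1 fit (edgeR adjusted p = 0.0395) and without S2-028 n3 (0.98, edgeR adjusted p = 0.0449).

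ADAM11 and ADAM22 lack protease activity, and ADAM22 is a receptor of LGI proteins in the nervous system. ADAM11 had 1.55, 1.13 and 1.05 CPM in S2-007, 2.94, 2.33 and 4.21 CPM in S2-020 and 10.9, 12.6 and 11.7 CPM in S2-028, with no overlap. Its log2 fold change was 3.24 (SE 0.175, edgeR adjusted p = 2.88e-12) in S2-028 and 1.31 (SE 0.250, edgeR adjusted p = 0.000227) in S2-020, each against S2-007. ADAM22 had 4.44, 3.45 and 4.11 CPM in S2-007, 13.4, 11.4 and 11 CPM in S2-020 and 10.4, 9.27 and 8.67 CPM in S2-028. It was higher than in S2-007 by 1.55 (SE 0.135) in S2-020 and by 1.24 (SE 0.149) in S2-028 on the log2 scale. ADAM12, a sheddase of stromal and tumor cells, had 0.376 to 1.06 CPM over all libraries, which overlapped, and it was not called. ADAM29, known from testis, was called higher in S2-028 on 12 to 28 counts against 2 to 8 in the other lines, and its log2 fold change was 2.36 against S2-007 and 2.48 against S2-020. The first call was lost without S2-007 n1 (0.0845), S2-007 n3 (0.111), S2-028 n1 (0.0917) or S2-028 n2 (0.130), values that are edgeR adjusted p. The second was lost without S2-020 n2 (0.0576), S2-028 n1 (0.0566) or S2-028 n2 (0.0850).

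**Figure D4:**
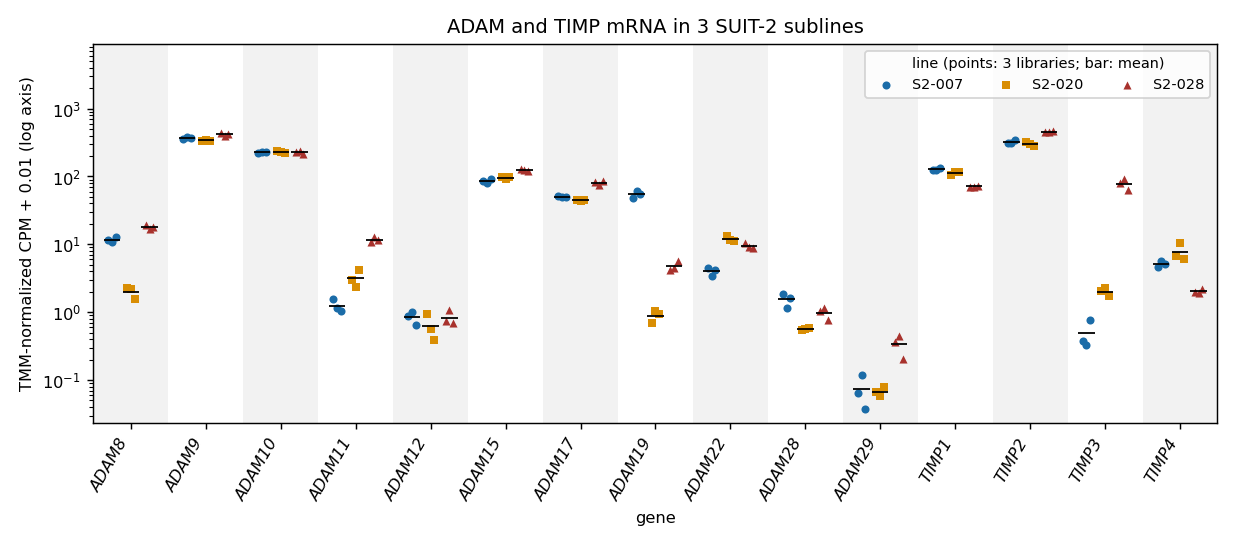
Level of each named ADAM and TIMP gene (x axis) in every library, as TMM-normalized CPM plus 0.01 on a log axis (y axis), with points for the 3 libraries of a line and a bar for their mean. ADAM10 is level across the lines at 213 to 239 CPM, ADAM19 is highest in S2-007, and TIMP3 is highest in S2-028.

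TIMP3 (gene 7078; chromosome 22 from 32801705 to 32863041, forward strand) had the highest log2 fold change of the 38 genes tested in S2-028 against S2-007. It had 0.361, 0.322 and 0.760 CPM in S2-007, which were 27, 24 and 56 counts. The S2-020 libraries had 2.02, 2.27 and 1.73 CPM. The S2-028 libraries had 79.8, 92.0 and 63.8 CPM. Each step was without overlap, in an order opposite to that of MMP1. The fitted log2 change was 7.35 (SE 0.186, edgeR adjusted p = 1.35e-17) in S2-028 and 2.03 (SE 0.319, edgeR adjusted p = 2.59e-05) in S2-020, each against S2-007. In S2-028 against S2-020 it was 5.29 (SE 0.135, edgeR adjusted p = 1.46e-16). Leaving out any single library kept the first value between 7.14 and 7.83.

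TIMP3 lies within the span of SYN3 with no exon of another gene over its own exons. SYN3 had a mean of 141 ± 5.56 CPM in S2-007, 133 ± 5.56 in S2-020 and 188 ± 11.4 in S2-028 (SD, n = 3), and its log2 fold change of 0.41 in S2-028 against S2-007 was under the 1.5-fold threshold. The 50 nearest other genes tested had a median log2 fold change of -0.06 in S2-028 against S2-007, with 2 called higher and 7 lower. In S2-020 against S2-007 it was -0.32, with 1 higher and 8 lower, and in S2-028 against S2-020 it was 0.28. Of all genes tested 18.4% were called in S2-028 against S2-007 and 21.6% in S2-020 against S2-007.

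TIMP1 and TIMP2, the widely made soluble inhibitors, moved little by comparison. TIMP1 had 124, 123 and 134 CPM in S2-007, 104, 116 and 118 CPM in S2-020 and 70.8, 70.6 and 72.0 CPM in S2-028. It was lower in S2-028 than in S2-007 (log2 fold change -0.83, SE 0.0598, edgeR adjusted p = 2.92e-10) and than in S2-020 (-0.66, SE 0.0597, edgeR adjusted p = 2.22e-08). TIMP2, which also takes part in the activation of pro-MMP2 by MMP14, had 308, 316 and 349.5 CPM in S2-007, 319, 297 and 284 CPM in S2-020 and 453, 448 and 465 CPM in S2-028. It was higher in S2-028 than in S2-020 (0.60, SE 0.0511, edgeR adjusted p = 8.76e-09), a call lost without S2-020 n3 (0.56, under the 1.5-fold threshold), and by 0.49 than in S2-007, which was not called.

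TIMP4, the least widespread of the 4, had 4.57, 5.67 and 5.17 CPM in S2-007, 6.78, 10.5 and 6.13 CPM in S2-020 and 2.00, 1.89 and 2.20 CPM in S2-028. It was lower in S2-028 than in S2-007 (log2 fold change -1.34, SE 0.185, edgeR adjusted p = 5.03e-06) and than in S2-020 (-1.94, SE 0.199, edgeR adjusted p = 1.26e-07). In S2-020 against S2-007 it was 0.57 (edgeR adjusted p = 0.0119), just under the 1.5-fold threshold, and it passed with RLE size factors (0.60), DESeq2 (0.60) or all 9 libraries in 1 fit (0.60), and without S2-007 n2 (0.66), S2-007 n3 (0.60), S2-020 n1 (0.66) or S2-020 n3 (0.72). Of its exon bases 14.2% lie under SYN2 on the opposite strand.

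Per kilobase of transcript, TIMP1 made up 64.0% ± 0.587 (SD, n = 3) of the summed TIMP level in S2-007, 62.1% ± 2.83 in S2-020 and 39.2% ± 0.324 in S2-028. TIMP2 made up 34.3% ± 0.513, 34.9% ± 2.84 and 52.8% ± 0.937. The share of TIMP3 was 0.0398% ± 0.0177, 0.185% ± 0.0237 and 7.24% ± 1.31, and that of TIMP4 was 1.67% ± 0.193, 2.76% ± 0.770 and 0.720% ± 0.0531. On this scale TIMP1 came first in each library of S2-007 and S2-020 and TIMP2 in each library of S2-028. By CPM, not divided by length, TIMP2 was above TIMP1 in every library. The order in S2-007 and S2-020 thus depends on the lengths used, 769 bases for TIMP1 and 3652 for TIMP2. Which transcripts were made was not measured. Of the exon bases of TIMP2 10.05% lie under another gene on the opposite strand.

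**Figure D5:**
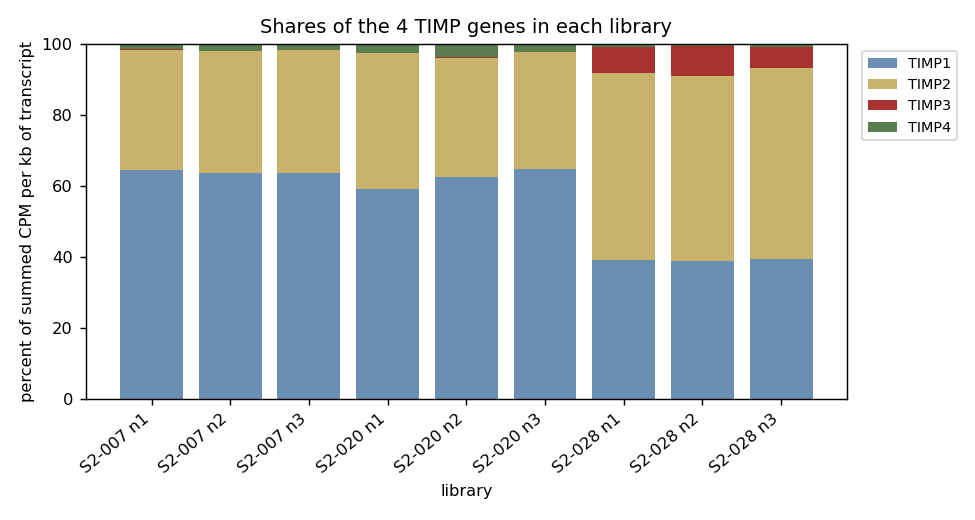
Share of each TIMP gene in the summed CPM per kb of transcript of the 4 TIMP genes (y axis, percent) in each of the 9 libraries (x axis), as stacked bars. TIMP1 holds 59.1% to 64.8% in the S2-007 and S2-020 libraries and 38.9% to 39.5% in S2-028, where TIMP3 holds 5.86% to 8.48%.

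Genes that activate MMPs or inhibit them by other means were divided in direction. Of 17 listed genes 15 were tested in each pair. In S2-028 against S2-007 4 were higher and 6 lower, in S2-020 against S2-007 7 and 6, and in S2-028 against S2-020 3 and 8, with median log2 fold changes of -0.38, 0.08 and -0.84. The share called over all genes tested was 18.4%, 21.6% and 22.2% in these pairs. SERPINE2, an inhibitor of thrombin and plasminogen activators, had a mean of 498 ± 70.9 CPM in S2-007 (SD, n = 3), 9.87 ± 0.714 in S2-020 and 1.62 ± 0.419 in S2-028. THBS2, a matricellular protein that helps to clear MMP2, had the opposite order with 11.6 ± 0.962, 202 ± 25.8 and 242 ± 7.60 CPM. The log2 fold changes in S2-028 against S2-007 were -8.25 (SE 0.136) for SERPINE2 and 4.39 (SE 0.0766) for THBS2. LCN2, the lipocalin that binds MMP9, had a mean of 92.5 ± 7.53 CPM in S2-007, 0.241 ± 0.163 in S2-020 and 34.9 ± 5.90 in S2-028.

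The partners of ADAM10 and ADAM17 are tetraspanins of the C8 group and the iRhom proteins with FRMD8. Of 9 genes tested 3 were higher and 2 lower in S2-028 against S2-007, 3 and 3 in S2-020 against S2-007, and 2 and 0 in S2-028 against S2-020. Among all genes tested 18.4%, 21.6% and 22.2% were called in these pairs. The respective median log2 fold changes were 0.43, 0.08 and 0.47. TSPAN17 and TSPAN33 were not called in any pair. TSPAN5, which escorts ADAM10, had a mean of 10.5 ± 0.469 CPM in S2-007 (SD, n = 3), 41.8 ± 6.96 in S2-020 and 36.0 ± 4.64 in S2-028. TSPAN15, another escort of ADAM10, had 49.1 ± 2.16, 14.6 ± 0.667 and 44.3 ± 3.68 CPM. For ADAM17, RHBDF1 (iRhom1) had 94.5 ± 3.99, 22.9 ± 1.96 and 33.0 ± 2.49 CPM and RHBDF2 (iRhom2) 28.5 ± 4.36, 30.7 ± 1.87 and 46.6 ± 3.87 CPM. RHBDF1 was lower in S2-028 than in S2-007 (log2 fold change -1.52, SE 0.0713) and RHBDF2 was higher (0.71, SE 0.0918).

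Of 22 genes of shed substrates 21 were tested. In S2-028 against S2-007 8 were higher and 3 lower, in S2-020 against S2-007 4 and 9, and in S2-028 against S2-020 12 and 3, with median log2 fold changes of -0.02, -0.27 and 0.98. Calls over all genes tested were 18.4%, 21.6% and 22.2% in these pairs. AREG, the amphiregulin precursor, had a mean of 58.1 ± 8.70 CPM in S2-007 (SD, n = 3), 24.8 ± 1.88 in S2-020 and 214 ± 6.37 in S2-028. CDH1, the gene of E-cadherin and one of the epithelial markers, had 54.2 ± 2.43, 4.54 ± 0.271 and 112 ± 7.16 CPM. TGFA had 267 ± 17.1, 50.8 ± 2.76 and 263 ± 19.8 CPM. EFNB1, the gene of the ligand ephrin-B1, had 103 ± 8.02, 17.7 ± 1.38 and 11.8 ± 1.41 CPM and was lower in S2-028 than in S2-007 (log2 fold change -3.13, SE 0.0908).

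The epithelial markers shared their lowest line with some of these genes. All 6 were higher in S2-028 than in S2-020, 5 of 6 were lower in S2-020 than in S2-007, and 4 of 6 were higher in S2-028 than in S2-007. This puts S2-020 lowest, as for MMP7, MMP15, ADAM8 and ADAM19. Against S2-007, however, MMP7 and ADAM19 were lower in S2-028 (log2 fold changes -2.31 and -3.51), opposite to those 4 markers. The leukocyte markers LYZ, CD68 and CD14 were higher in S2-007, as were MMP1, MMP7, MMP12 and MMP28, while PTPRC, which defines leukocytes, was between 0.0835 and 0.407 CPM in every library. Their part in these results was not tested.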

How the data were processed

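RNA of 3 SUIT-2 sublines was sequenced as 3 libraries each, and each library was assigned to its line by its title. Strand-specific libraries of poly(A) RNA were trimmed with Trimmomatic 0.39 and aligned with BWA 0.7.17 to GRCh38.p14, and SAMtools 1.12 and edgeR 3.16.5 were also listed in the submitters' processing notes. The authors deposited whole-number counts of mapped reads per gene, which were used as deposited. The counting tool, its strand setting and its treatment of reads with several matches are not given in the sources used here. BWA is not a spliced aligner, and reads that span an exon junction may be clipped or lost. The authors also deposited 18 columns of normalized signal, which were not used, and 2 rows naming no gene stayed out of library sizes and tests.

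Tests on counts used edgeR 4.0.16 under R 4.3.3 (filterByExpr, TMM, glmQLFit and glmQLFTest), with the 6 libraries of a pair of lines in each fit and Benjamini-Hochberg adjustment over all genes tested. The quasi-likelihood test was used because the study's text names a likelihood ratio test but a supplementary title the quasi-likelihood test, and the former was an alternative. Each SE is the absolute log2 fold change divided by the square root of F. Printed CPM use TMM factors of all 9 libraries, so that their ratio may differ slightly from a fold change. CPM per kb were CPM divided by the length of the MANE Select transcript of GENCODE, which 47 of the 50 genes have. Floors of counts cover counting error only, while each SD and SE also includes the spread between the libraries of a line. Gene positions and promoters came from RefSeq tables of GRCh38.p14, the build of the alignment.

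Genes were named if called in at least 1 comparison with a mean of at least 1 CPM in a line, or if they were on a list of familiar members, and from each related list at most 3 called genes per comparison with the smallest adjusted p. The members and lists were chosen with earlier results of these data known. Alternatives were RLE size factors, no filter on low counts, the likelihood ratio test, DESeq2 1.42.0, all 9 libraries in 1 fit, a replicate block, the adjusted p alone, and each library left out in turn. On simulated counts a log2 change of 1 was recovered for 88.2% of changed genes in S2-028 against S2-007, 92.4% in S2-020 against S2-007 and 88.3% in S2-028 against S2-020. Changed genes were drawn only from those with a mean above 1 CPM in the 6 libraries of the pair. These shares therefore do not cover scarcer genes, such as MMP9, MMP10, MMP12 and MMP13. Of the genes left unchanged, 11, 8 and 6 were called in the respective comparisons. The simulation gave both lines 1 mean profile. In S2-028 against S2-007 it changed 110 of 26371 genes by 1 and 90 by 2 on the log2 scale. In the data 18.4% of genes were called in that pair, so these figures are not error rates for the data.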

Additional observations from a re-analysis of the deposited data

How the results depend on the processing

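The numbers of genes called in each direction stayed within 1.5 times their value under the alternatives, except that 11 genes in place of 7 were higher in S2-028 than in S2-007 by the adjusted p alone. With each library left out in turn, 5 to 8 genes were higher and 10 to 12 lower in S2-028 against S2-007, 6 to 7 and 10 to 12 in S2-020 against S2-007, and 10 to 13 and 6 to 7 in S2-028 against S2-020. Of 54 called differences of named genes 46 kept their call and direction under every setting, and those of ADAM8, ADAM29, MMP11, MMP13, MMP23B, MMP28 and TIMP2 that did not are described with their values above. Leaving out 1 library at a time, the log2 fold change of ADAM29 stayed between 2.00 and 2.98 in S2-028 against S2-007 and between 2.24 and 2.75 in S2-028 against S2-020. Directions changed only where a difference was not called. ADAM10 in S2-028 against S2-007 was -0.0064 with RLE size factors and -0.0064 with DESeq2. With each library left out in turn ADAM10 lay between -0.0328 and 0.0480 in S2-028 against S2-007, between -0.0237 and 0.0412 in S2-020 against S2-007 and between -0.0626 and 0.0211 in S2-028 against S2-020. In S2-028 against S2-007 ADAM12 lay between -0.2544 and 0.1207, MMP19 between -0.1027 and 0.2652 and MMP9 between -1.1326 and 0.3346. The cause was not tested.

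The libraries share only a replicate number. The correlation of same-numbered deviations from the line means was between -0.0219 and 0.0140, and a fit with the replicate number as a block called 7 genes higher and 11 lower in S2-028 against S2-007, 6 and 11 in S2-020 against S2-007 and 11 and 7 in S2-028 against S2-020. The edgeR adjusted p of MMP28 in S2-028 against S2-020 was 0.0650 with the block. Not every library correlated best with its own number. Depth limits the 17 genes under 30 counts in every library, MMP2, MMP3 and MMP9 among them, and also MMP10, MMP12 and MMP13, whose lower lines held few reads.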

Other observations

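The ADAMTS proteases, secreted relatives of the ADAMs that cut proteoglycans and other matrix proteins, were divided in direction. Of 19 genes 16 were tested in S2-028 against S2-007, where 2 were higher and 2 lower. In S2-020 against S2-007 4 of 17 were higher and 3 lower, and in S2-028 against S2-020 2 of 17 were higher and 4 lower. The respective median log2 fold changes were -0.11, 0.05 and -0.25, and the shares called over all genes tested were 18.4%, 21.6% and 22.2%. ADAMTS15, which cuts aggrecan and versican, had 130.1, 133 and 169 CPM in S2-007, 493, 509 and 474 CPM in S2-020 and 281, 236 and 264 CPM in S2-028. Its libraries did not overlap between lines, with S2-020 highest, and the log2 fold change in S2-020 against S2-007 was 1.74 (SE 0.0726). ADAMTS9 had the same order with means of 12 ± 1.02, 40.1 ± 1.09 and 24.8 ± 3.30 CPM (SD, n = 3). ADAMTS7 was lowest in S2-020, with means of 10.8 ± 0.928, 2.14 ± 0.438 and 12.2 ± 0.548 CPM, as were ADAM8 and ADAM19.

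Of 13 AP-1 and ETS factors, transcription factors with sites in several MMP promoters, 3 were higher and 3 lower in S2-028 against S2-007, 2 and 5 in S2-020 against S2-007, and 6 and 5 in S2-028 against S2-020. The median log2 fold changes were 0.16, -0.14 and 0.28, and the shares called over all genes tested were 18.4%, 21.6% and 22.2%. JUN had a mean of 49.9 ± 6.77 CPM in S2-007 (SD, n = 3), 319.6 ± 13.7 in S2-020 and 138 ± 5.44 in S2-028. FOSL1 had 796 ± 86.4, 407 ± 6.73 and 886 ± 98.3 CPM, and ETS1 had 138 ± 18.1, 351 ± 20.1 and 147 ± 18 CPM. ELF3, an epithelial ETS factor, had 219.6 ± 15.4, 171 ± 15.2 and 105 ± 8.65 CPM and was lower in S2-028 than in S2-007 (log2 fold change -1.06, SE 0.0725).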
